A study of Homo sapiens with 10 samples.

Results

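YAP1, WWTR1, TEAD1, TEAD4, CCN1, CCN2, ANKRD1, AMOTL2, LATS2 and AJUBA, the coactivators, DNA-binding partners, target genes and regulators of the Hippo pathway described here, were chosen by name. They are 10 of the 22626 genes and loci in the deposited table, and each was found once by its symbol. RNA of ARPE-19, an established human cell line of the retinal pigment epithelium (RPE), was sequenced to ask how high glucose, as in diabetic retinopathy, alters these cells. The control group received 5.5 mM glucose with 32 mM mannitol for 48 h, and the HG group received 37.5 mM glucose for 48 h, with 5 libraries in each. Mannitol is a sugar alcohol that balances the number of dissolved molecules, so the groups differed in glucose and in mannitol at the same time. Total counts per library ran from 33039260 to 45864176 among the controls, with a median of 41468270, and from 32448991 to 44400714 among the HG libraries, with a median of 39867119. The labels do not say whether the libraries of a group came from separate cultures, so the p-values measure only the spread between these samples, which may be technical.

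YAP (gene YAP1) and TAZ (gene WWTR1) are transcriptional coactivators that cannot bind DNA themselves and act mainly through the TEAD transcription factors. The Hippo kinase cascade, which ends in the LATS kinases, phosphorylates YAP and TAZ and holds them in the cytoplasm, while cell spreading, stiff matrix and actin tension let them enter the nucleus. In RPE cells YAP is known for its part in specifying the pigmented epithelium during eye development and in the response of the mature cells to loss of contact, and transcript levels of YAP1 and WWTR1 do not show where the proteins are in the cell.

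HG_1 and control 2 stood apart from the other 8 libraries. Names HG_1 to HG_5 are those of the deposited columns, since the labels letter the HG samples and these numbered columns could be matched only to the group. Transcripts rich in GC had higher values in HG_1 and control 2, with slopes of 0.184 and 0.166 on the log2 scale per 10 GC percentage points, whereas the slopes of the other libraries were between -0.091 and -0.00407. The second principal component of the log2 normalized counts, with 14.9% of the variance, set the same libraries apart. Of the members, YAP1, WWTR1, TEAD1, AMOTL2 and LATS2 had the lowest value of each group in control 2 and HG_1. The longest annotated transcripts of YAP1, WWTR1 and TEAD1 have 43.5%, 40.9% and 41.3% GC, and those of LATS2 and AMOTL2 have 51.8% and 56.7%. Results are therefore given with all libraries, without HG_1 and control 2, and after the trend of each library on GC content and transcript length was removed.

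Members were called at an adjusted p under 0.05 in edgeR's quasi-likelihood test over 14936 genes and loci, with Benjamini-Hochberg adjustment. High glucose was accompanied by lower CCN2 and CCN1, classical secreted targets of YAP and TEAD, while YAP1 itself was at the same mean level within its error. All 10 members passed the filter on low counts, with between 440 and 36529 counts per library. With all libraries, 2 of the 10 were called, against 15.4% of all genes and loci tested. Both were lower in the HG group, where 7.8% of all were called lower, and 0 were called higher, where 7.62% of all were. At an unadjusted p under 0.05 in edgeR, CCN1, CCN2, WWTR1 and TEAD4 were lower (14.4% of all) and ANKRD1 was higher (14.1% of all), and DESeq2 called ANKRD1 higher after adjustment. The groups did not overlap for the same 2 members, against 13.6% of all genes and loci without overlap and 6.91% without overlap and lower in the HG group. A share of 2 in 10 lies near these backgrounds, so the counts say little about the members as a group, and the single genes are described below.

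Without HG_1 and control 2, 4 of the 10 members were called by edgeR, against 27.1% of all 14899 tested. CCN1, CCN2 and TEAD1 were the 3 called lower (13.8% of all), and ANKRD1 was the 1 called higher (13.3% of all). After removal of the GC and length trend, 3 of the 10 were called, CCN1, CCN2 and WWTR1, against 27.9% of the 13538 genes with both values, and these 3 were lower (14.1% of all). These shares of the members again lie near the backgrounds. The common biological coefficient of variation of those genes fell from 0.151 to 0.126 with the correction.

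**Figure D1:**
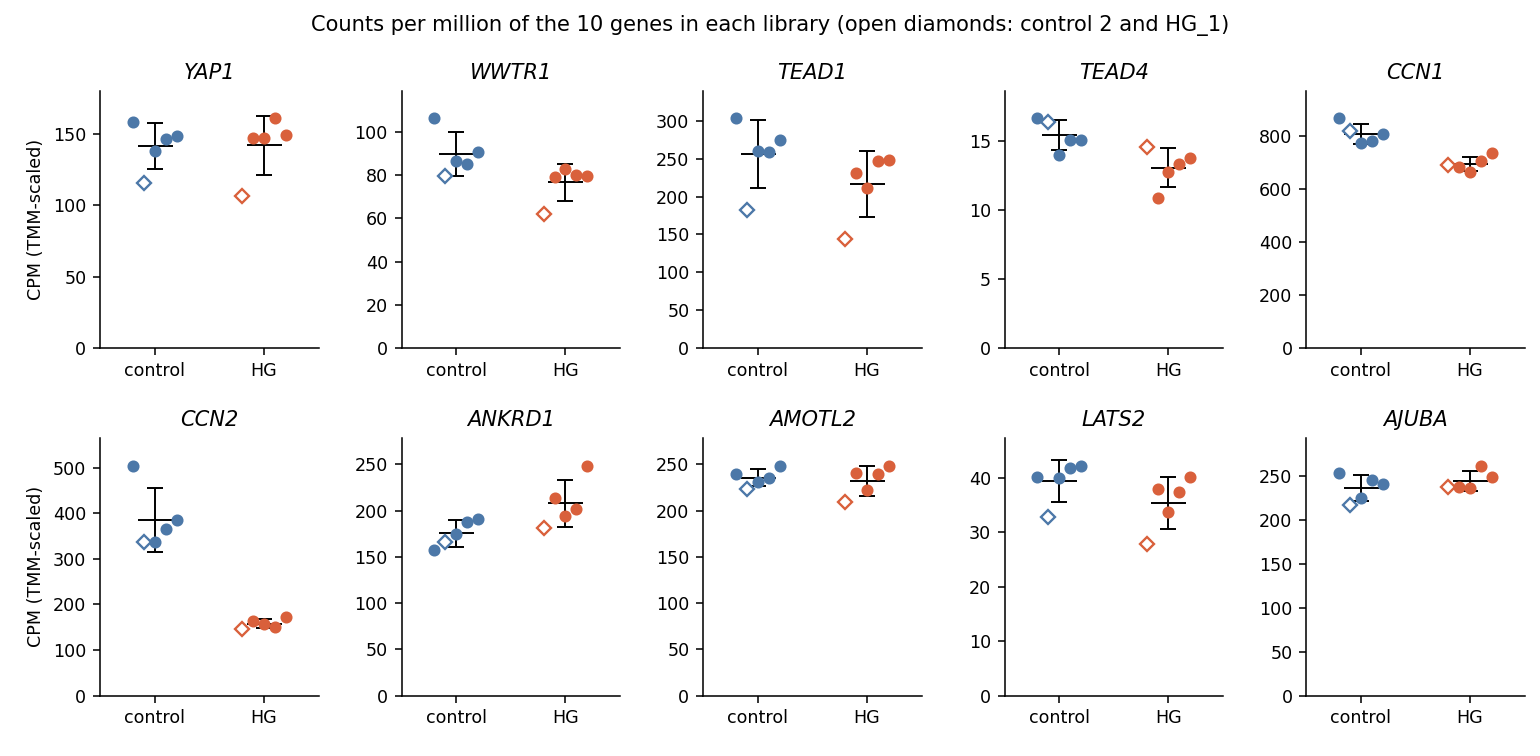
Normalized read counts (CPM, vertical axis, from 0, scaled by TMM) of the 10 members in the 5 control and 5 HG libraries, 1 point per library, with the mean and SD of each group as horizontal line and bar. Open diamonds mark control 2 and HG_1, which are low for YAP1, WWTR1, TEAD1 and LATS2, while CCN2 lies between 337 and 505 CPM in the control group and between 146 and 172 in the HG group.

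CCN2 (CTGF in older usage, ENSG00000118523) encodes a secreted matricellular protein that promotes matrix deposition and is among the most used readouts of YAP and TEAD activity. The gene lies at chr6:131948176-131951373 on the minus strand (GRCh38, GENCODE release 29), and an annotated noncoding gene overlaps it on the other strand. Its promoter is shown because it holds more copies of the TEAD recognition sequence than that of any other member examined. RefSeq promoter windows, the 250 bases before an annotated start on GRCh38.p14, were found for 7 of the 10 members (10 windows in all), and those of TEAD1, TEAD4 and CCN1 were not analysed here. The letters GGAATG were searched on both strands (CATTCC on the other), and no matches overlapped each other. At least 1 match was held by 11.9% of all 35116 windows, at least 2 by 0.94% and at least 3 by 0.0826%. The window of CCN2 holds 3 matches, starting 169, 104 and 95 bases before the start, which are in capitals in the stretch from 200 to 51 bases before the start, chr6:131951423-131951572, minus strand:
CCN2: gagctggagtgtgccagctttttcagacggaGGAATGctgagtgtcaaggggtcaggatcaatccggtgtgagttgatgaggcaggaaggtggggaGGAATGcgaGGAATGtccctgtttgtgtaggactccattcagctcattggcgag

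The window of ANKRD1 holds 2 matches, and those of YAP1, AMOTL2 and AJUBA hold 1 each, the last pair in only 1 of the 2 windows of the gene. Each is given as 30 bases with the match in capitals, 5′ to 3′ on the strand of the gene, so that the flanks can be compared with those in CCN2. They are ANKRD1 220 bases before the start (chr10:90921290-90921319, minus strand) and 128 bases before it (chr10:90921198-90921227, minus strand), YAP1 162 bases before (chr11:102110273-102110302, plus strand), AMOTL2 69 bases before (chr3:134374499-134374528, minus strand) and AJUBA 59 bases before (chr14:22976884-22976913, minus strand):
ANKRD1, 220 bases before: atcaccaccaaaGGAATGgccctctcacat
ANKRD1, 128 bases before: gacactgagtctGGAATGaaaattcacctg
YAP1: cgggagtgtgcaGGAATGtagcaacttgca
AMOTL2: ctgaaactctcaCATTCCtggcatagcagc
AJUBA: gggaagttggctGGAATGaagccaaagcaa
The RefSeq starts from which the ANKRD1, AMOTL2 and AJUBA matches are counted lie inside the GENCODE spans given for these genes, so the second ANKRD1 stretch and those of AMOTL2 and AJUBA fall within the spans. No match was found in the windows of WWTR1 and LATS2. These letters describe the windows and show no binding.

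The CPM of CCN2 in control 1 to 5 was 505, 337, 337, 365 and 385, and in HG_1 to HG_5 it was 146, 163, 157, 150 and 172. Every HG library lay below every control library, and control 1 stood above the other control libraries. CCN2 fell from 386 ± 69.5 CPM in the control group to 157 ± 10.2 CPM in the HG group (SD, n = 5 each), a decrease of 59.2%. The log2 fold change was -1.29 (standard error 0.107, 95% confidence interval -1.53 to -1.06), with an adjusted p of 6.97e-05 from edgeR. Ordered by absolute log2 fold change, CCN2 stood at place 224 of the 14936 genes and loci. Without HG_1 and control 2 the log2 fold change was -1.31 (standard error 0.115, edgeR adjusted p = 0.000155), and after removal of the GC and length trend it was -1.33 (standard error 0.124, edgeR adjusted p = 1.72e-05). In bulk RNA, fewer cells with the transcript and less transcript per cell cannot be told apart.

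CCN1 (CYR61 in older usage, ENSG00000142871, chr1:85580761-85583962, plus strand) encodes a related matricellular protein that binds integrins. Its CPM was 867, 819, 773, 781 and 807 in control 1 to 5 and 691, 684, 663, 706 and 735 in HG_1 to HG_5. The groups did not overlap, but the highest HG library came close to the lowest control library. CCN1 fell from 809 ± 37.5 CPM to 696 ± 27 CPM (SD, n = 5 each), a decrease of 14%. The log2 fold change was -0.22 (standard error 0.045, 95% confidence interval -0.32 to -0.12, edgeR adjusted p = 0.00818). It was -0.21 without HG_1 and control 2 (edgeR adjusted p = 0.00883) and -0.25 after removal of the GC and length trend (edgeR adjusted p = 0.00361).

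ANKRD1 (ENSG00000148677, chr10:90912096-90921276, minus strand) encodes an ankyrin repeat protein of the nucleus and the sarcomere, first known from heart muscle, and is the third widely used YAP readout. Its CPM was 157, 166, 175, 188 and 191 in control 1 to 5 and 181, 214, 195, 201 and 248 in HG_1 to HG_5. Of the HG libraries, 4 lay above every control library, and HG_1 lay within the control range. ANKRD1 had 175 ± 14.4 CPM among the controls and 208 ± 25.7 CPM in the HG group (SD, n = 5 each), the opposite direction to CCN1 and CCN2. The log2 fold change of 0.24 (standard error 0.0868, 95% confidence interval 0.05 to 0.44) did not pass with all libraries (edgeR adjusted p = 0.0849). ANKRD1 passed without HG_1 and control 2, at 0.27 (edgeR adjusted p = 0.0443), and without HG_1 alone, at 0.29 (edgeR adjusted p = 0.0313). After removal of the GC and length trend it did not pass, at 0.18 (edgeR adjusted p = 0.108). Over all 22 alternatives its adjusted p was between 0.0313 and 0.184, and its direction was the same in each.

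Ratios between these targets within a library do not depend on the size of the library, and the 3 pairs, chosen after their values had been seen, are given as a description without a test. The log2 ratio of CCN2 to CCN1 was -0.78, -1.28, -1.20, -1.10 and -1.07 in control 1 to 5 and -2.25, -2.07, -2.08, -2.23 and -2.10 in HG_1 to HG_5. The groups did not overlap, with a mean of -1.09 ± 0.19 in the control group and -2.15 ± 0.09 in the HG group (SD, n = 5 each). CCN2 was thus lower in the HG group relative to CCN1 by a difference of -1.06 log2 units. The ratio of ANKRD1 to CCN1 was -2.21 ± 0.17 in the control group and -1.75 ± 0.14 in the HG group, a difference of 0.46, and that of ANKRD1 to CCN2 was -1.12 ± 0.32 and 0.39 ± 0.09, a difference of 1.52. For each of the 3 ratios the groups did not overlap. Without HG_1 and control 2 the differences were -1.08, 0.48 and 1.56.

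**Figure D2:**
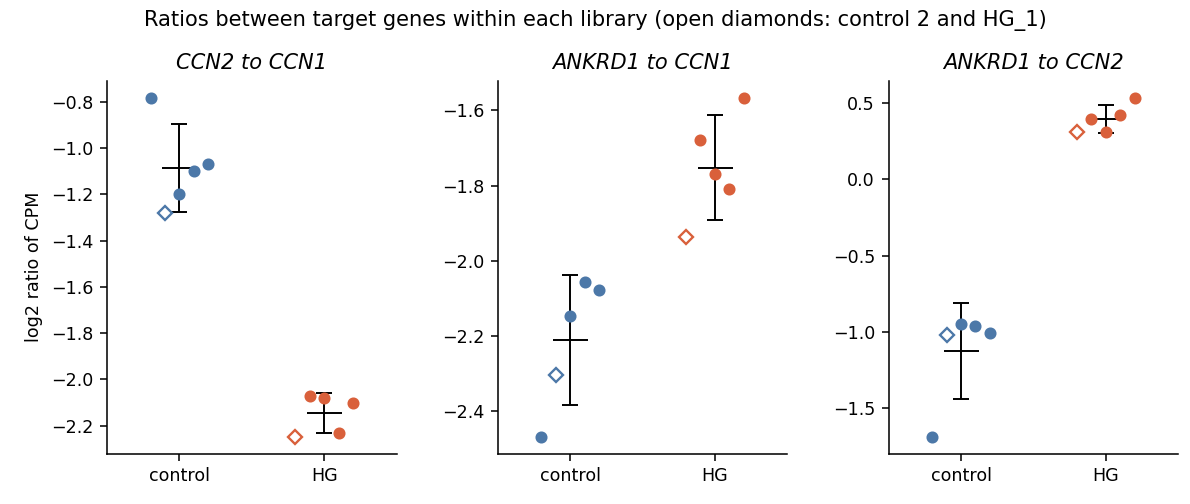
Log2 ratio of the CPM of each pair among CCN2, CCN1 and ANKRD1 (vertical axes, which do not start at 0), 1 point per library, with the mean and SD of each group and open diamonds for control 2 and HG_1. The HG libraries lie below the control libraries for CCN2 to CCN1 and above them for both ratios of ANKRD1.

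The coactivators differed less. YAP1 (ENSG00000137693, chr11:102110461-102233423, plus strand) had 158, 115, 138, 146 and 149 CPM in control 1 to 5 and 107, 147, 147, 161 and 149 CPM in HG_1 to HG_5. The groups overlapped almost fully, and control 2 and HG_1 were the lowest of each. The means were 141 ± 16.1 and 142 ± 20.6 CPM (SD, n = 5 each), with a log2 fold change of 0.0081 (95% confidence interval -0.24 to 0.25, edgeR adjusted p = 0.974). Without HG_1 and control 2 the interval narrowed to -0.07 to 0.14 around 0.03, and after removal of the GC and length trend it was -0.13 to 0.13. The sign of so small a value changed among the alternatives.

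WWTR1 (ENSG00000018408, chr3:149517235-149736714, minus strand) had 106, 79.5, 86.5, 85.2 and 90.8 CPM in control 1 to 5 and 61.9, 78.9, 82.7, 80.2 and 79.7 CPM in HG_1 to HG_5. All 5 HG libraries lay below the control mean, 2 of them below every control library, and HG_1 was lowest. The means were 89.7 ± 10.1 and 76.7 ± 8.41 CPM (SD, n = 5 each), and the log2 fold change of -0.23 (standard error 0.0945) did not pass (edgeR adjusted p = 0.143). After removal of the GC and length trend the value was nearly the same, -0.24, but its standard error was 0.0534 and it passed (edgeR adjusted p = 0.00548). Without HG_1 and control 2 it was -0.20 and did not pass (edgeR adjusted p = 0.0575). The adjusted p over the 22 alternatives was between 0.00548 and 0.299.

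Of the TEAD factors, which carry YAP and TAZ to DNA, TEAD1 (ENSG00000187079, chr11:12674591-12944483, plus strand) had 303, 182, 260, 259 and 275 CPM in control 1 to 5 and 144, 231, 211, 247 and 249 CPM in HG_1 to HG_5. Control 2 and HG_1 were far below the other libraries of their groups, and the groups overlapped. The means were 256 ± 45 and 216 ± 43.2 CPM (SD, n = 5 each), with a log2 fold change of -0.24 (standard error 0.162, edgeR adjusted p = 0.379). Without these libraries TEAD1 was called, at -0.23 with a standard error of 0.0657 (edgeR adjusted p = 0.0332), the lowest adjusted p of its 22 alternatives, which reached 0.608. Leaving out HG_1 alone gave -0.12 and leaving out control 2 alone gave -0.34, neither called, and 1 surrogate variable in the model gave -0.14, also not called. The GC and length correction gave -0.22 (edgeR adjusted p = 0.057).

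TEAD4 (ENSG00000197905, chr12:2959330-3040673, plus strand), with 60.4% GC, was not low in control 2 or HG_1. It had 16.6, 16.4, 14, 15.1 and 15.1 CPM in control 1 to 5 and 14.6, 10.9, 12.8, 13.4 and 13.8 CPM in HG_1 to HG_5. Of the HG libraries 4 lay below every control library, and HG_1 lay within the control range. The log2 fold change of -0.24 (standard error 0.0886) did not pass with all libraries (edgeR adjusted p = 0.0984), without HG_1 and control 2 (-0.26, edgeR adjusted p = 0.0679) or after the correction (-0.25, edgeR adjusted p = 0.0799). It passed only with 1 surrogate variable in the model, at -0.27 (edgeR adjusted p = 0.035).

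Among the regulators, AMOTL2 and AJUBA, each with a mean of 236 CPM in the control group, varied little between libraries, with coefficients of variation of 4.04% and 6.26% in the control group and 6.8% and 4.5% in the HG group. AMOTL2 (ENSG00000114019, chr3:134355874-134375479, minus strand), an angiomotin that binds YAP at cell junctions and is itself a YAP target, was between 223 and 248 CPM in the control group and between 209 and 248 CPM in the HG group. AJUBA (ENSG00000129474, chr14:22971174-22982642, minus strand), a LIM protein that restrains the LATS kinases at junctions under tension, was between 217 and 253 CPM and between 236 and 261 CPM. The groups overlapped for both. Their log2 fold changes were -0.023 (95% confidence interval -0.14 to 0.094) and 0.049 (95% confidence interval -0.066 to 0.16), with adjusted p-values of 0.832 and 0.607 from edgeR, so changes beyond these intervals were not seen. An annotated coding read-through gene overlaps AJUBA on the same strand, so its count is uncertain where reads could be assigned to either.

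LATS2 (ENSG00000150457, chr13:20973032-21061547, minus strand), the kinase that phosphorylates YAP and TAZ and is also a YAP target, was between 32.7 and 42.2 CPM in the control group and between 27.8 and 40.1 CPM in the HG group. Control 2 and HG_1 were its lowest values, and the other HG libraries overlapped the control group. The log2 fold change was -0.15 (standard error 0.104, edgeR adjusted p = 0.382), and -0.14 without HG_1 and control 2 (standard error 0.0526, edgeR adjusted p = 0.0857). Leaving out HG_1 alone gave -0.075 and leaving out control 2 alone gave -0.21 for LATS2, neither called. On the same strand, annotated genes that do not code for protein overlap AMOTL2 (2 genes) and WWTR1, TEAD1 and LATS2 (1 each), and counting by strand would not separate these. Such genes also overlap YAP1, WWTR1, TEAD1 and LATS2 on the other strand, as for CCN2, and reads of these pairs cannot be told apart unless counting used strand, which is not given in the sources used here. For log2 CPM of single members the two-sided exact permutation test gave 0.00794 for CCN1 and CCN2, the smallest p possible, 0.0159 for TEAD4, 0.0317 for WWTR1 and ANKRD1, and between 0.198 and 0.921 for the other 5 members, all without adjustment.

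**Figure D3:**
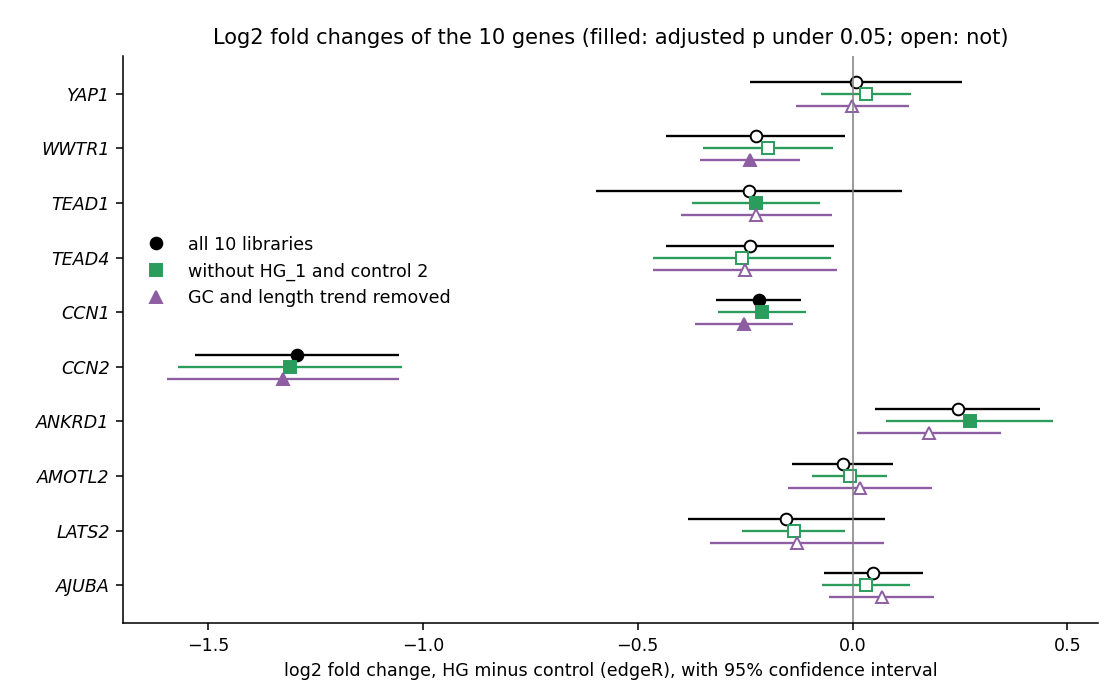
Log2 fold change of the 10 members (horizontal axis, HG minus control, edgeR) with 95% confidence intervals in 3 fits: all 10 libraries, without HG_1 and control 2, and after removal of the GC and length trend, with filled symbols at an adjusted p under 0.05. CCN2 lies between -1.33 and -1.29 and CCN1 between -0.25 and -0.21, and the intervals of YAP1 and TEAD1 narrow in the latter fits.

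Levels can be compared between genes in FPKM, a unit that accounts for transcript length and was computed by the authors. In the control group CCN1 was highest, at 328 ± 15 FPKM, followed by CCN2 at 152 ± 28 and ANKRD1 at 90.4 ± 8.22 (SD, n = 5 each), and these 3 did not overlap each other or any lower member. AJUBA (55.3 ± 4.39 FPKM) and AMOTL2 (47.6 ± 2.45 FPKM) overlapped each other. YAP1 (26.9 ± 4.3 FPKM) overlapped TEAD1 (25.2 ± 4.66 FPKM), and TEAD1 overlapped WWTR1 (16.7 ± 1.91 FPKM). AMOTL2 did not overlap YAP1, and WWTR1 did not overlap TEAD4. TEAD4 was at 8.73 ± 0.676 FPKM and LATS2 lowest at 6.56 ± 0.719 FPKM, without overlap between them. In the HG group the order of levels was the same except that ANKRD1, at 108 ± 14.6 FPKM, stood above CCN2, at 62.7 ± 4.91 FPKM. The HG libraries of ANKRD1 (90.3 to 130 FPKM) and of CCN2 (55.7 to 68.5 FPKM) did not overlap, nor did the control libraries of the same genes in the reverse order. In the HG group CCN2 overlapped AJUBA, and TEAD4 overlapped LATS2.

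**Figure D4:**
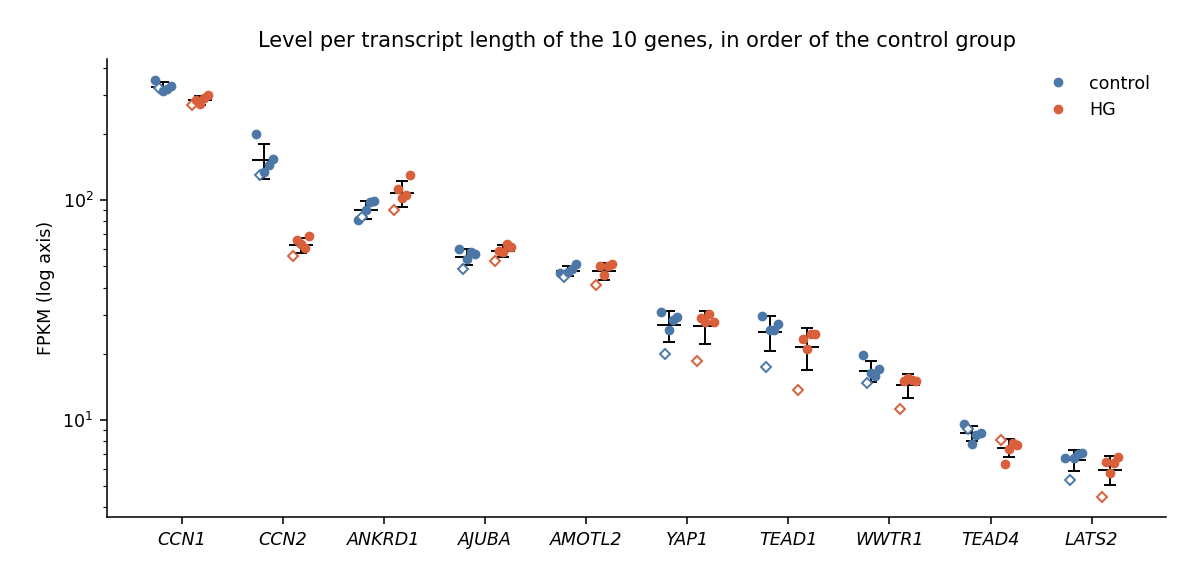
FPKM of the 10 members (vertical log axis) in the order of the control group, with 1 point per library, the mean and SD of each group and open diamonds for control 2 and HG_1. The transcripts of CCN2 and ANKRD1 exchange places between the groups, from 152 against 90.4 FPKM in the control group to 62.7 against 108 in the HG group.

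Genes that varied most like CCN2, CCN1 and ANKRD1 within the groups were ranked by Pearson's r of log2 CPM over the 10 libraries after each group mean was subtracted, among 12365 genes. All values come from the same libraries with the same depths, and r is a description without a test. For CCN2 the highest were SOCS7 (r = 0.967), FILIP1L (0.943) and TDG (0.932), and these were 0.846, 0.839 and 0.854 without control 1, the library in which CCN2 was highest. For CCN1 they were ZNF630 (r = 0.935), MYCBP (0.911) and HCN4 (0.91). For ANKRD1 they were SET (r = 0.949), DNAJC22 (0.939) and C17orf67 (0.938). Between CCN2 and ANKRD1 themselves r was 0.0235 with all libraries and 0.895 without control 1, and between CCN2 and CCN1 it was 0.687 and 0.312, so both values rest on that library.

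The wider pathway was followed in lists, each counted in the edgeR fit with all libraries and set beside the median log2 fold change of all genes and loci tested, 0.00132, and the shares of all that were called, 7.8% lower and 7.62% higher. Without HG_1 and control 2 these shares were 13.8% and 13.3%, and after the GC and length correction 14.1% were lower, so counts in those fits rise for genes in general. Of the 9 tested genes among the YAP, TAZ and TEAD factors and their VGLL relatives (4 of them members), 1 was called higher and 1 lower, with a median of -0.23, which was -0.0016 without the 4 members. TEAD2, the paralog of TEAD1 and TEAD4 that is prominent in embryonic tissue, fell from 14.2 ± 2.13 to 8.68 ± 1.63 CPM (SD, n = 5 each), a log2 fold change of -0.71 (edgeR adjusted p = 0.00729). By FPKM in the control group, TEAD1 (25.2) stood above TEAD4 (8.73), TEAD3 (6.31) and TEAD2 (5.73). VGLL2, a TEAD cofactor of skeletal muscle, was low and rose from 3.7 ± 0.448 to 5.01 ± 0.646 CPM (SD, n = 5 each), a log2 fold change of 0.44 (edgeR adjusted p = 0.0448), a call that was lost in 11 of 22 alternatives. Of these factors, 3 were lower without HG_1 and control 2, where 13.8% of all were called lower, and TEAD1 was among them.

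Of the 20 Hippo kinases and upstream activators, LATS2 included, 4 were called lower and 0 higher, with a median of -0.14. The matching share of all genes and loci called lower was 7.8%, against 4 of 20 here. At an unadjusted p under 0.05 in edgeR 4 were lower (14.4% of all) and 1 was higher (14.1% of all), while DESeq2 called 4 lower and 0 higher. After adjustment 6 were lower and 1 higher without HG_1 and control 2, and 5 were lower and 1 higher after the GC and length correction. WWC2, a scaffold that activates LATS kinases, fell by 0.63 on the log2 scale (edgeR adjusted p = 0.0138), with groups that overlapped, and did not pass in the 3 alternatives with limma. NF2, the tumor suppressor merlin that recruits LATS kinases to the membrane, fell by 0.41 (edgeR adjusted p = 0.00191). MAP4K4, a kinase that can phosphorylate LATS kinases, fell by 0.23 (edgeR adjusted p = 0.0287) and did not pass in 9 of 22 alternatives, and WWC1 was the remaining gene. Limma on log2(FPKM + 0.1) called 1 of the 20 lower. With all libraries, of the 9 proteins that bind YAP or LATS kinases, among them AMOTL2 and AJUBA, only WTIP, a LIM protein related to AJUBA, was called, at -0.34 (edgeR adjusted p = 0.0237), and it did not pass in 8 of 22 alternatives.

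All 22 genes of a published signature of YAP and TAZ targets, to which CCN1, CCN2, ANKRD1, AMOTL2 and LATS2 belong, were tested. Of these, 8 were called lower and 2 higher, with a median of -0.15, and without the 5 members 6 of 17 were lower and 2 higher. IGFBP3, a secreted binder of insulin-like growth factors, fell from 287 ± 30.1 to 174 ± 22.9 CPM (SD, n = 5 each), a log2 fold change of -0.72 (edgeR adjusted p = 0.000776). CCDC80, a matrix protein, fell from 606 ± 62.9 to 398 ± 10.8 CPM (SD, n = 5 each), a log2 fold change of -0.61 (edgeR adjusted p = 0.000235), which was -0.39 with limma on log2(FPKM + 1) and on log2(FPKM + 0.1) and still called. NT5E, the ecto-enzyme CD73, rose from 217 ± 11.1 to 290 ± 26.6 CPM (SD, n = 5 each), a log2 fold change of 0.42 (edgeR adjusted p = 0.00173), and GADD45A, a stress-induced growth arrest gene, rose by 0.23 (edgeR adjusted p = 0.0113). The other 12 genes of the signature, ANKRD1 among them, were not called. Of the 16 signature genes with a RefSeq window, 8 (50%) held at least 1 GGAATG match, against 13.4% of the 10970 tested genes with a window, 16.6% of those called lower and 9.95% of those called higher.

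Of 10 tested genes among other described YAP targets, 4 were called lower, with a median of -0.18. After adjustment 0 were higher in edgeR and in DESeq2, and limma on log2(FPKM + 0.1) and the GC and length correction each called 1 higher. At an unadjusted p under 0.05 in edgeR 6 were lower (14.4% of all) and 1 was higher (14.1% of all). THBS1, the matricellular protein thrombospondin 1, had 1694, 808, 948, 1066 and 1127 CPM in control 1 to 5 and 270, 377, 355, 410 and 441 CPM in HG_1 to HG_5. As for CCN2, control 1 was highest and the groups did not overlap, and the log2 fold change was -1.61 (standard error 0.195, edgeR adjusted p = 0.000446). EDN1, the vasoconstrictor endothelin 1, fell from 10.8 ± 2.37 to 3.96 ± 0.704 CPM (SD, n = 5 each), a log2 fold change of -1.45 (edgeR adjusted p = 0.000366).

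CCN2, THBS1 and other YAP targets are shared with factors that respond to actin and to TGF-beta, whose targets were counted as well. Of 12 tested targets of SRF and its actin-sensing cofactors MRTF, 11 were called lower and 0 higher, with a median of -0.36 and all 12 below 0. TAGLN and MYL9, actin-binding and myosin proteins of contractile cells, fell by 1.30 each on the log2 scale (adjusted p = 0.00025 and 0.000145 from edgeR), and CNN2 fell by 0.68 (edgeR adjusted p = 0.000122). At an unadjusted p under 0.05 in edgeR, and by DESeq2 and limma on log2(FPKM + 0.1), 11 of this list were lower and 0 higher. Of the 14 TGF-beta and SMAD targets, CCN2 included, 4 were lower and 1 was higher, with a median of -0.20, and 7 were lower without HG_1 and control 2, where the share of all called lower rose from 7.8% to 13.8%. Among those lower were CCN2 and PMEPA1, a membrane protein that dampens the pathway, at -0.29 (edgeR adjusted p = 0.0143), and BHLHE40, a transcription factor, rose by 0.19 (edgeR adjusted p = 0.0239), a call lost in 7 of 22 alternatives.

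AP-1 factors often bind beside TEAD factors at enhancers of YAP targets, and of the 8 subunits 3 were called lower and 3 higher. FOSB fell from 1.79 ± 0.283 to 0.881 ± 0.17 CPM (SD, n = 5 each), by 1.02 on the log2 scale (edgeR adjusted p = 0.0062). The size for this low transcript was -0.25 with limma on log2(FPKM + 1) and -0.78 with limma on log2(FPKM + 0.1), and it was called in both. JUNB fell by 0.31 (adjusted p = 0.0393) and FOSL2 by 0.28 (adjusted p = 0.0145), both from edgeR. ATF3 rose by 0.68 (adjusted p = 0.000558), JUND by 0.37 (adjusted p = 0.0191) and JUN by 0.16 (adjusted p = 0.0284), all from edgeR. The call of JUNB was lost in 7 of 22 alternatives, that of JUN in 4, and those of FOSL2 and JUND in 2 each. Of 10 proliferation markers, which also follow YAP activity in many cells, 1 was called, MCM2, a subunit of the replicative helicase, at -0.26 (edgeR adjusted p = 0.00883), with a median of 0.08 for the list. At an unadjusted p under 0.05 in edgeR 2 of these markers were higher (14.1% of all) and 1 was lower (14.4% of all). After adjustment 1 was higher with DESeq2, with library size alone and with the GC and length correction, and 2 without HG_1 and control 2.

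**Figure D5:**
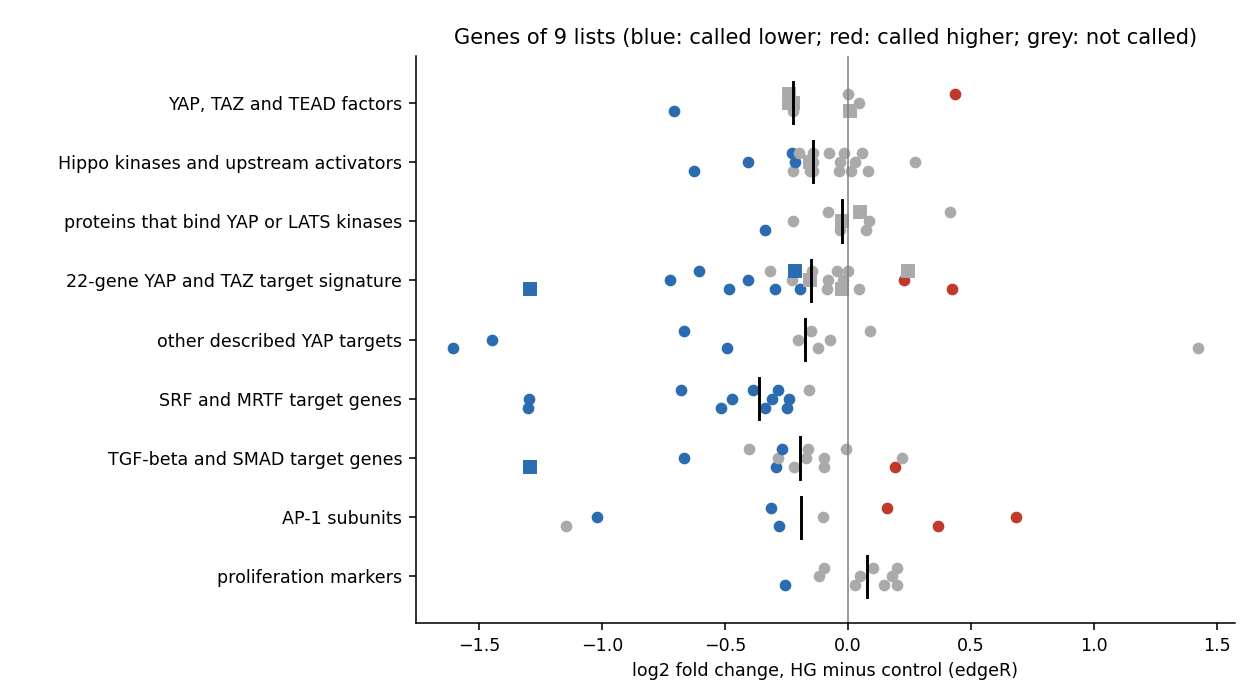
Log2 fold change (horizontal axis, HG minus control, edgeR, all libraries) of each tested gene in 9 lists, with squares for the members, circles for other genes and a black line at the median of each list, in blue where called lower, red where called higher and grey where not called. The SRF and MRTF targets all lie below 0, while the YAP and TAZ signature has 8 genes lower and 2 higher.

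The label of the cells was compared with markers in FPKM. Of 13 RPE markers 10 passed the filter on low counts. KRT8 was the most abundant at 954 FPKM in the control group and 611 in the HG group, and the transcription factors OTX2 (33.9 and 31.6) and MITF (11.4 and 10) were present. Of the defining RPE markers, TTR was listed at 0 in every library and RPE65 and TYR averaged under 0.1 FPKM over all libraries, and BEST1 was at 57.2 and 120 FPKM in control 1 and control 4 and between 0.237 and 1.63 in the others. Summed over the 13 markers, control 1 to 5 had 1921, 1864, 1543, 1713 and 1630 FPKM, and HG_1 to HG_5 had 1295, 1046, 1027, 988 and 1110. RLBP1, the retinaldehyde-binding protein of RPE, was at 6.47 and 5.26 FPKM, and PMEL, a melanosome protein, at 1.65 and 0.971. The sums were lower in every HG library than in any control library, as was CCN2, but most of each sum was KRT8 and KRT18, which made 1034 and 773 FPKM of the sum in control 1 and 546 and 390 in HG_4. Called lower by edgeR were KRT8, KRT18 and PMEL, 3 of the 10 tested, against 7.8% of all genes and loci. OTX2, MITF, RLBP1 and BEST1 were not called. At an unadjusted p under 0.05 in edgeR, 7 of the 10 tested RPE markers were lower (14.4% of all) and 0 were higher (14.1% of all).

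Markers of other cell types were also read beside the members. Of all genes and loci tested, 7.8% were called lower and 7.62% higher by edgeR. At an unadjusted p under 0.05, 14.4% were lower and 14.1% higher. Of 8 fibroblast markers 2 were tested and both were lower, PDGFRB being the most abundant (28.7 and 16.8 FPKM), LUM and THY1 were listed at 0, and the sums were 43.8, 34.5, 36.6, 35.5 and 38.9 FPKM in control 1 to 5 and 21.1, 21, 20.6, 17.8 and 20.7 FPKM in HG_1 to HG_5. Of 6 immune markers 2 were tested and 1 was higher, CD68 (38 and 62.1 FPKM), which is also a lysosomal gene of many cell types, with PTPRC near 0 and CD3E listed at 0. The other tested immune marker, CSF1R, a receptor of macrophages, had 1.58 and 1.18 FPKM and did not pass, with a log2 fold change of -0.43 (edgeR adjusted p = 0.0502). The immune sums, nearly all CD68, were between 30.9 and 44.7 FPKM in the control group and between 56.6 and 76.2 FPKM in the HG group. Smooth muscle markers summed to at most 0.0512 FPKM in any library, and DES and ACTG2 were listed at 0, while TAGLN and MYL9 fell. Endothelial markers summed to between 0.417 and 0.904 FPKM, led by KDR, with 1 of 2 tested genes lower and CDH5 listed at 0. Neural retina markers, led by RBPMS, summed to between 38.7 and 53.1 FPKM with CRX listed at 0, and of 3 tested genes 0 were called by edgeR and 1 was higher at an unadjusted p under 0.05. The part of the RPE, fibroblast and immune markers in the levels of CCN1, CCN2 and ANKRD1 was not tested.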

How the data were processed

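The deposited values are whole-number read counts per gene and library, and FPKM of the same 10 libraries, computed by the authors. FPKM accounts for sequencing depth and transcript length, but these values are not the counts scaled by a fixed length for each gene. For example, MYL9 had 274.3 and 282.8 CPM in control 3 and control 4 but 195.3 and 116.9 FPKM. The submitters' processing notes name fastp 0.20.1 and HISAT2 2.2.1, and the counting program, its strand setting and the annotation are not given in the sources used here. Counts were compared in R 4.3.3 with edgeR 4.0.16 (default filter on low counts, TMM, quasi-likelihood test, Benjamini-Hochberg adjustment over 14936 genes and loci). CPM were scaled by TMM, and log2 CPM used a prior count of 2. The edgeR test returns no standard error, so the absolute log2 fold change was divided by the square root of the F statistic. Confidence intervals used this derived standard error and the degrees of freedom of the edgeR fit. The steps were tested on simulated counts. With 3 counts as the limit that a count of 0 allows, the floor was between 0.0654 and 0.0925 CPM per library, for counting error only. The 20 pairs of libraries within a group differed by more than sampling noise (chi-square per gene between 13.8 and 78.5).

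The members and the 9 pathway and 6 marker lists were chosen with earlier results of these data known. Besides the members, the rule named up to 3 genes called higher and 3 called lower per pathway list by the size of the log2 fold change, and the 3 genes most like each of CCN1, CCN2 and ANKRD1. WWC1 and the marker genes are named outside this rule. Alternatives were DESeq2 1.42.0, RLE factors, scaling by library size only, leaving out the filter, requiring 10 counts or more in each library, dropping MSTRG loci (loci built from the reads), limma 3.58.1 on log2(FPKM + 1), on log2(FPKM + 0.1) and with a mean FPKM of at least 1, 1 surrogate variable (sva 3.50.0), each library left out, and HG_1 and control 2 left out together. HG_1 and control 2 were picked for leaving out because they stood apart in these same data. The GC and length correction (lowess, span 0.3, longest transcript of GENCODE release 29) and the ratios between CCN1, CCN2 and ANKRD1 were added after seeing the data. Exact permutation tests of single members used scipy 1.17.1.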

Additional observations from a re-analysis of the deposited data

Results flagged for a closer look

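A library was singled out where its gap to the nearest of the other 4 libraries of its group exceeded 0.71 of the range of the group in CPM, Dixon's limit for 5 values. Of 70 groups of values of the named genes, 8 held such a library, and at 1 in 20 groups chance alone gives 3.5. These groups share libraries and are not independent.

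HG_1 was low for YAP1, at 106.8 CPM against 146.9 to 161 in the other HG libraries, and for WWTR1, at 61.85 CPM against 78.92 to 82.73. HG_1 was high for WTIP, at 26.91 CPM against 21.42 to 22.55. Control 2 was low for LATS2, at 32.72 CPM against 39.99 to 42.22 in the other controls. These are the libraries that also stood apart by GC content, and with that trend removed the standard error of YAP1 fell from 0.112 to 0.0605, that of WWTR1 from 0.0945 to 0.0534 and that of LATS2 from 0.104 to 0.0932, whereas that of AMOTL2, also lowest in these libraries, rose from 0.0533 to 0.0768. Control 1 was high for CCN2, at 504.7 CPM against 336.9 to 384.7 in the other controls, and low for JUN, at 190.6 CPM against 210.5 to 214. Without control 1 the log2 fold change of CCN2 was -1.18, and CCN2 was still called. HG_5 was high for IGFBP3, at 213.8 CPM against 156.4 to 168.5. HG_2 was low for FOSB, at 0.5817 CPM against 0.9352 to 1.003. The causes were not tested.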

How the results depend on the processing

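CCN1 and CCN2 were called lower in all 22 alternatives, with log2 fold changes between -0.25 and -0.19 (adjusted p up to 0.0274) and between -1.34 and -1.18 (adjusted p up to 0.000608). LATS2 and AJUBA were called in none, and the order of levels by medians was that by means. The 3 ratios between targets kept their direction, and with 1 library left out CCN2 to CCN1 differed by -1.11 to -0.98, ANKRD1 to CCN1 by 0.39 to 0.50 and ANKRD1 to CCN2 by 1.38 to 1.56. The GC and length correction and the ratios were added after seeing the data, and HG_1 and control 2 were picked from these same data.

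Other members depended on the choice. ANKRD1 passed at 0.24 with DESeq2 (adjusted p = 0.0417), at 0.27 with 1 surrogate variable (adjusted p = 0.0327) and at 0.27 without HG_1 and control 2 (adjusted p = 0.0443), and in each of these 1 member was called higher. With 1 library left out ANKRD1 was between 0.17 (without HG_5) and 0.29 (without HG_1), so that between 0 and 1 members were called higher. WWTR1 passed at -0.24 with the GC and length correction (adjusted p = 0.00548), TEAD1 at -0.23 without HG_1 and control 2 (adjusted p = 0.0332) and TEAD4 at -0.27 with 1 surrogate variable (adjusted p = 0.035). YAP1 turned negative with limma, at -0.017 on log2(FPKM + 1), at -0.017 on log2(FPKM + 0.1) and at -0.017 on log2(FPKM + 1) where the mean FPKM had to reach 1, and it was -0.00046 with the GC and length correction. With 1 library left out YAP1 was between -0.055 (without control 2) and 0.10 (without HG_1). AMOTL2 turned positive, at 0.0017 with 1 surrogate variable and 0.018 with the GC and length correction, and with 1 library left out it was between -0.049 (without HG_5) and 0.015 (without HG_1). No value of YAP1 or AMOTL2 passed. The cause was not tested for these.

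Of all genes and loci, 2303 were called (1138 higher and 1165 lower). DESeq2, which also called ANKRD1, called 3086 (1498 higher and 1588 lower). With 1 library left out, between 798 and 1469 were called higher, the most without HG_1, where ANKRD1 was called. With 1 surrogate variable 4008 were called (1965 higher and 2043 lower), without HG_1 and control 2 4035 (1984 higher and 2051 lower), and with the GC and length correction 3781 (1866 higher and 1915 lower). The cause was not tested.

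The counts of called genes in the lists moved as well. For the YAP, TAZ and TEAD factors, limma on log2(FPKM + 0.1) called 0 higher, 3 were lower without HG_1 and control 2, and 2 were lower with the GC and length correction. For the Hippo kinases and activators, 1 was higher and 6 lower without HG_1 and control 2, 1 was higher and 5 lower with the correction, and limma called 1 lower. For the proteins that bind YAP or LATS kinases, 1 was higher with DESeq2, 2 were higher and 2 lower without HG_1 and control 2, 2 were higher and 2 lower with the correction, and limma called 0 lower. For the other YAP targets, 1 was higher with limma and 1 with the correction. For the TGF-beta targets, 0 were higher with limma and 7 were lower without HG_1 and control 2. For the proliferation markers, 1 was higher with DESeq2, 1 with library size alone, 2 without HG_1 and control 2 and 1 with the correction. The cause was not tested.

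Of the other genes named from the pathway lists by the rule, none reversed in direction, and the calls of VGLL2, MAP4K4, WTIP, WWC2, BHLHE40, JUNB, JUN, FOSL2 and JUND were lost in some alternatives. With limma on log2(FPKM + 1), CCDC80 was -0.39, FOSB -0.25, VGLL2 0.29 and WTIP -0.20, each smaller than in edgeR. WWC1 and the cell type markers were not examined under the alternatives. For the genes ranked by likeness, only r without control 1 was examined. No paired analysis was possible because the labels pair no HG library with a control library. Each member had at least 440 counts in every library, and libraries of a group differed by more than sampling noise over all genes. For single members counting error and spread were not compared. In the fit with all libraries, differences of YAP1, AMOTL2 and AJUBA within their 95% confidence intervals are not excluded. High glucose and the absence of mannitol cannot be told apart in this design.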
